A study of Mus musculus with 11 samples.

Results

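The genes described here encode the receptors for acetylcholine and the enzyme that destroys it: the nicotinic subunit genes Chrna3, Chrna5, Chrna7, Chrnb2 and Chrnb4, the muscarinic receptor genes Chrm1, Chrm2, Chrm3 and Chrm4, and Ache, which encodes acetylcholinesterase. They were chosen by name, and all 10 were measured among the 30142 genes tested. Expression had been profiled on arrays of total RNA from C57B6 mice aged 2 months, male and female, described as wildtype and with no treatment named. Carotid body had 3 arrays, each a pool from 10 mice. Superior cervical ganglion and adrenal medulla had 4 arrays each, all of them pools from 3 mice. A replicate is therefore a pool of mice, and how mice were divided among pools is not given in the sources used here. The p-values rest on 1 estimate per gene of the spread between pools, shared by the 3 tissues and drawn toward that of all genes. Where 1 tissue is more scattered than the others, as carotid body is for Chrnb4, its own comparisons get a smaller SE than its scatter alone would give. The comparison without it gets a larger one. Values are log2 signals after RMA (robust multi-array average), given as mean ± SD over n = 3 or n = 4 arrays. A gene was called between tissues at a Benjamini-Hochberg adjusted p under 0.05 in limma and a log2 difference of at least 1, which is 2-fold.

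Nicotinic receptors are ligand-gated cation channels assembled from several subunits around a pore. The subunits encoded by Chrna3 and Chrnb4, with Chrna5 or Chrnb2 as partners, form the receptor that carries fast transmission in autonomic ganglia and onto chromaffin cells. The subunit encoded by Chrna7 can form a channel on its own that is rich in calcium current. Muscarinic receptors act through G proteins: those of Chrm1 and Chrm3 couple to phospholipase C, and those of Chrm2 and Chrm4 inhibit adenylyl cyclase. In the carotid body, the arterial oxygen sensor, acetylcholine is one of the transmitters proposed to act between glomus cells and the afferent nerve. The superior cervical ganglion holds sympathetic neurons, and the adrenal medulla holds chromaffin cells, both driven by cholinergic preganglionic fibres whose cell bodies lie in the spinal cord.

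RefSeq's gene table (GRCm38.p6) places Chrna5, Chrna3 and Chrnb4 as consecutive protein-coding genes on chromosome 9. Their promoters are shown because all 3 genes were highest in ganglion, and the promoter of Chrna7 because that gene was lowest there. The sequences are RefSeq's, build GRCm38.p6, from 250 bases before to 50 bases after the gene's start, 5′ to 3′ on the gene's strand. Capitals mark GGGCGG, the core of the GC box bound by Sp1-type factors, or its reverse complement. RefSeq lists another start for Chrna5, whose window is not printed and holds no GGGCGG. The windows are chr9:54981238-54981537 (+) for Chrna5, chr9:55026513-55026812 (-) for Chrna3, chr9:55048495-55048794 (-) for Chrnb4 and chr7:63212477-63212776 (-) for Chrna7.
Chrna5: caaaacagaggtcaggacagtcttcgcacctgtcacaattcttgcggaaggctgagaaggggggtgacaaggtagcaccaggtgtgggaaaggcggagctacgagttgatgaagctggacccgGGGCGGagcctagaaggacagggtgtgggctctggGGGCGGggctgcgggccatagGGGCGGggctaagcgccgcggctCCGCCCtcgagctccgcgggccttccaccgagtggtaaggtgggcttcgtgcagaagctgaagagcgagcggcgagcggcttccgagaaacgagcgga
Chrna3: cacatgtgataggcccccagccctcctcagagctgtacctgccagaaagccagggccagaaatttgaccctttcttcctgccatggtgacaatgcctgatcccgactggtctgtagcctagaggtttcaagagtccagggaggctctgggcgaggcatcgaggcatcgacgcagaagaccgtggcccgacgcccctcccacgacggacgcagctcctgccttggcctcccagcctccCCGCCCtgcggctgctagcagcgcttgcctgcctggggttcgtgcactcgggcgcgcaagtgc
Chrnb4: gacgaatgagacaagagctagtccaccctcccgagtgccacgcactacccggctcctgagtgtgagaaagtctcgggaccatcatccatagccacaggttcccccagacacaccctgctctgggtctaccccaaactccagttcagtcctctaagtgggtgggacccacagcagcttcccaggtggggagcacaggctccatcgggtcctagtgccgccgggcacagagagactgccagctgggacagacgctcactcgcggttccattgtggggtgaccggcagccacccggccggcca
Chrna7: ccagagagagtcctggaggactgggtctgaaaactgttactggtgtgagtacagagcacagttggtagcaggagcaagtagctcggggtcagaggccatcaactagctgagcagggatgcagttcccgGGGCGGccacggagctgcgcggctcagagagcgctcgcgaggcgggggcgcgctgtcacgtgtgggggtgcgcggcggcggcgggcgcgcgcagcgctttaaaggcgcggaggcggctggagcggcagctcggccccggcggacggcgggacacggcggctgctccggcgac

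The printed Chrna5 window holds GGGCGG 4 times, those of Chrna3 and Chrna7 hold it 1 time each, and the Chrnb4 window does not hold these letters. Counting both strands, 7 of the 10 windows found for 9 of the 10 genes hold GGGCGG, beside 35.7% of all 32851 promoters of 300 bases. Chrm1 has no entry in the promoter table. The E-box letters CANNTG, which read the same on both strands, were found in 9 of the 10 windows and in 72.3% of all promoters, and TGACGTCA in 0 of the 10 and in 1.79%. Copies of a motif were counted even where they overlap, as CANNTG does with itself at the 5′ end of the Chrna3 window. The GC share was 65.0% for the printed Chrna5 window, 64.3% for Chrna3, 63.0% for Chrnb4 and 70.0% for Chrna7, where the median of all promoters was 52.7%. These matches describe the letters of the windows and say nothing of binding.

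Across the tissues, most of these genes had their highest level in ganglion. Against ganglion, 7 of the 10 were called lower in carotid body (background over all genes: 8.28% called lower) and 1, Chrna7, was called higher (background 5.61%), where 13.9% of all genes were called in either direction. Against ganglion, 6 of the 10 were called lower in adrenal medulla (background 7.50%) and again Chrna7 alone was higher (background 5.72%), with 13.2% of genes called in all. The median difference of the 10 genes was -2.30 for carotid body minus ganglion, beside -0.02 over all genes, and -2.31 for adrenal medulla minus ganglion, beside -0.08. Both comparisons use the same ganglion arrays, and each tissue's arrays serve in 2 of the 3 comparisons. Between carotid body and adrenal medulla, 2 were called lower in carotid body (background 4.95%) and 1 higher (background 6.06%), with 11% of all genes called and a median difference of 0.20 beside 0.05.

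**Figure D1:**
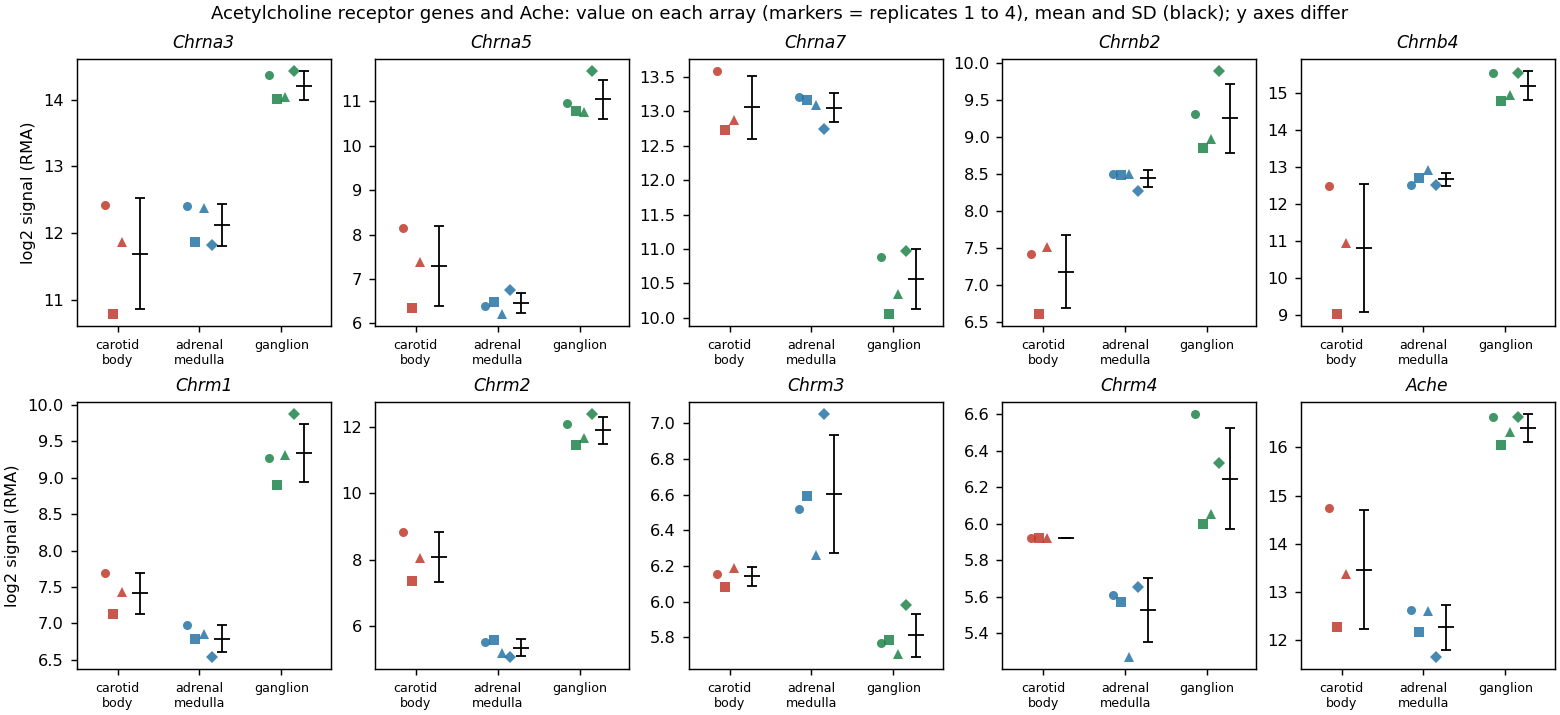
Log2 signal of each of the 10 genes on every array, with 1 panel per gene and its own y axis; marker shapes stand for replicates 1 to 4 and black bars show mean and SD. Most genes are highest in ganglion, while Chrna7 and the dim Chrm3 are lowest there. The 3 carotid body arrays are far apart for Chrnb4 (9.04 to 12.48) and Ache (12.27 to 14.73).

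Marker genes give the setting for these differences, since pieces of tissue and not sorted cells were hybridised. Over the 12 measured neuron markers the mean log2 level ranged over the ganglion arrays from 14.45 to 14.80. It ranged from 10.83 to 12.56 over those of carotid body and from 9.62 to 10.07 over those of adrenal medulla. All 12 were called lower in both other tissues than in ganglion. Between carotid body and adrenal medulla 7 were called, each with carotid body above, and 5 were not. Snap25 read 16.64 to 17.30 on the adrenal medulla arrays and 15.79 to 17.34 on those of carotid body. Uchl1 (12.65 to 13.39 and 12.13 to 13.71) and Isl1 (9.99 to 10.48 and 9.21 to 10.26) overlapped as well. The mean of these markers therefore cannot be read as neuron content alone. The 8 measured markers of chromaffin or glomus cells averaged 14.07 to 15.06 in carotid body, 14.74 to 15.33 in ganglion and 17.43 to 17.68 in adrenal medulla. None of them was under the background bound on all arrays of a tissue. Th, Dbh, Ddc, Slc18a1 and Slc18a2 of this list read higher on every ganglion array than on any carotid body array, and Chga, Chgb and Scg2 lower. The list's mean therefore does not separate glomus cells from sympathetic neurons. The 10 adrenal cortex markers averaged 14.30 to 14.82 in adrenal medulla against 5.02 to 5.50 in ganglion and 5.26 to 5.59 in carotid body, where in each tissue 5 of the 10, Cyp11b1 among them, were under the bound on all arrays. That bound is each array's 95th percentile over 540 vomeronasal receptor and keratin-associated protein genes taken as silent (5.36 to 5.61). Fibroblast markers averaged 14.09 to 14.25 in carotid body, 8.73 to 8.91 in adrenal medulla and 10.02 to 10.35 in ganglion. In that order, smooth muscle and pericyte markers averaged 11.15 to 11.62, 8.51 to 8.68 and 7.08 to 7.19. Adipocyte markers averaged 8.97 to 9.62, 5.80 to 5.92 and 6.26 to 6.88. Glial markers averaged 10.26 to 10.55, 7.80 to 7.99 and 9.93 to 10.65. Endothelial markers averaged 11.005 to 11.09, 11.42 to 11.77 and 7.36 to 7.69. The part of cell composition in the differences was not tested, and fewer cells of a type cannot be told apart here from less RNA per cell. Array medians over all genes lay between 5.63 and 5.84.

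Chrna3 (transcript cluster TC0900002327.mm.1), the alpha subunit of the ganglionic receptor, was highest in ganglion. It read 12.42, 10.79 and 11.87 on the carotid body arrays (in replicate order here and below), 12.41, 11.87, 12.38 and 11.83 on the adrenal medulla arrays, and 14.37, 14.02, 14.04 and 14.43 on those of ganglion. Carotid body and adrenal medulla overlapped, and every ganglion array lay above all others. Ganglion was 5.75-fold above carotid body (log2 difference -2.52, SE 0.32, limma adjusted p = 0.00011) and 4.27-fold above adrenal medulla (-2.09, SE 0.30, adjusted p = 0.000216). Between carotid body and adrenal medulla the difference was -0.43 (SE 0.32, adjusted p = 0.368), and it was 0.02 without carotid body replicate 2.

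Chrnb4 (TC0900002328.mm.1), the beta subunit that pairs with it, showed the widest spread of the group in carotid body. It read 12.48, 9.04 and 10.95 on the carotid body arrays, 12.52, 12.69, 12.91 and 12.52 on those of adrenal medulla, and 15.53, 14.79, 14.94 and 15.52 on those of ganglion. Carotid body replicate 1 reached to within 0.04 of the lowest adrenal medulla array, while replicate 2 was far below. Ganglion was 20.7-fold above carotid body (-4.37, SE 0.60, adjusted p = 0.000189) and 5.79-fold above adrenal medulla (-2.53, SE 0.56, adjusted p = 0.00438). The difference from carotid body was -5.20 without carotid body replicate 1 and -3.48 without replicate 2. Carotid body was called 3.58-fold lower than adrenal medulla (-1.84, SE 0.60, adjusted p = 0.0414). That call was lost on leaving out any array other than carotid body replicate 1, 10 of 11 cases, with the difference at -0.95 without carotid body replicate 2 and -2.67 without replicate 1 (adjusted p from 0.00111 to 0.107).

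Chrna5 (TC0900000668.mm.1), an accessory subunit that joins the ganglionic receptor, had its largest difference between adrenal medulla and ganglion. It read 8.14, 6.35 and 7.38 in carotid body, 6.38, 6.49, 6.21 and 6.74 in adrenal medulla, and 10.97, 10.78, 10.76 and 11.68 in ganglion. The ganglion arrays were all far above the rest, and the carotid body arrays ran from within the adrenal medulla range to above it. Ganglion was 24.1-fold above adrenal medulla (-4.59, SE 0.34, adjusted p = 1.2e-06) and 13.6-fold above carotid body (-3.76, SE 0.36, adjusted p = 1.62e-05). Carotid body was 0.83 above adrenal medulla (SE 0.36, adjusted p = 0.118), not called, but it was called without carotid body replicate 2 (1.30, adjusted p = 0.00878).

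Chrnb2 (TC0300002355.mm.1), a beta subunit widely used in brain, was called lower in carotid body than in both other tissues, as Chrnb4 was. It read 7.42, 6.61 and 7.52 in carotid body, 8.51, 8.49, 8.50 and 8.28 in adrenal medulla, and 9.32, 8.86, 8.97 and 9.89 in ganglion. The 3 tissues did not overlap. Carotid body was 2.40-fold below adrenal medulla (-1.26, SE 0.26, adjusted p = 0.00371), a difference that fell just under the 2-fold limit without carotid body replicate 2 (-0.98, adjusted p = 0.0158), and 4.22-fold below ganglion (-2.08, SE 0.26, adjusted p = 9.93e-05). Adrenal medulla and ganglion differed by -0.82 (SE 0.24, adjusted p = 0.0229), under the 2-fold limit.

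Chrna7 (TC0700003403.mm.1), whose product forms the calcium-rich channel of its own, went the other way from the rest of the nicotinic genes. It read 13.59, 12.73 and 12.87 in carotid body, 13.21, 13.17, 13.09 and 12.75 in adrenal medulla, and 10.89, 10.06, 10.35 and 10.97 in ganglion. Carotid body and adrenal medulla had nearly the same mean (13.06 ± 0.46 and 13.05 ± 0.21), and no ganglion array reached either. Carotid body was 5.64-fold above ganglion (2.50, SE 0.26, adjusted p = 2.45e-05) and adrenal medulla 5.62-fold above it (2.49, SE 0.24, adjusted p = 9.69e-06). The difference between carotid body and adrenal medulla was 0.01 (SE 0.26, adjusted p = 0.99), which changed sign under 3 other scalings or weightings and with 2 left-out arrays. The mean of the 10 adrenal cortex markers was at least 14.30 on each adrenal medulla array and at most 5.59 on each carotid body array, the tissues in which Chrna7 had these means.

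**Figure D2:**
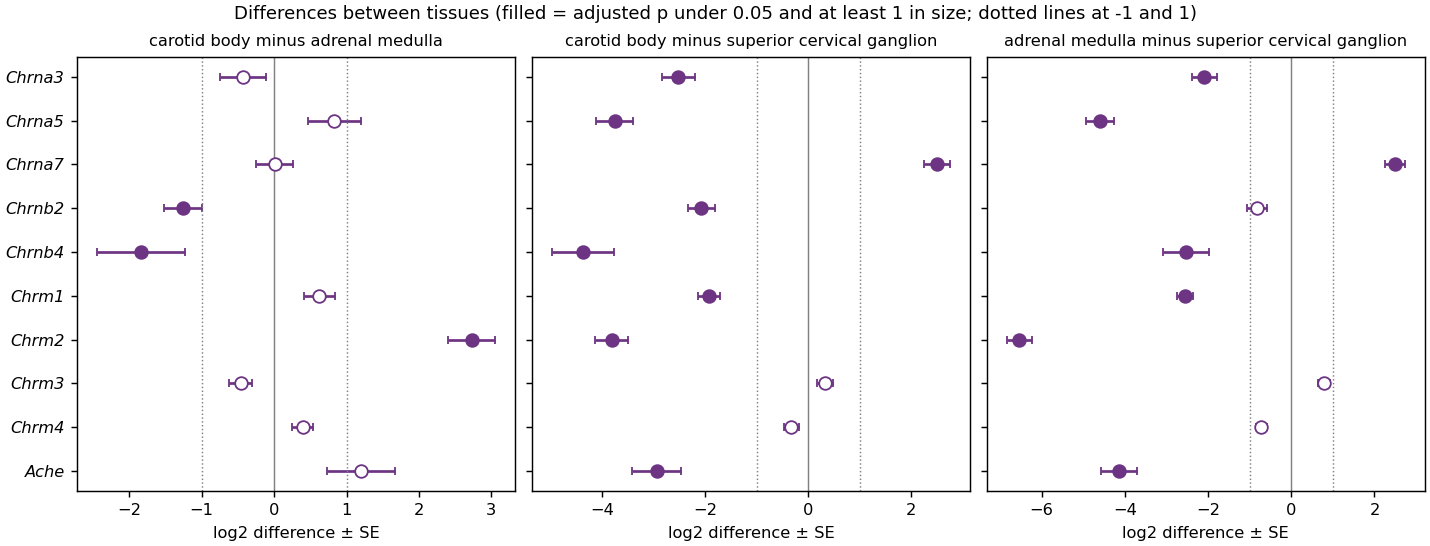
Log2 difference with its standard error for each gene (rows) in the 3 tissue comparisons (panels, each with its own x axis); filled points passed the adjusted p of 0.05 and the 2-fold limit, marked by dotted lines. Chrna7 is the only filled point to the right in both comparisons with ganglion, and Chrm2 the only one to the right between carotid body and adrenal medulla.

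The 3 clustered nicotinic genes were set beside their neighbours in RefSeq order, 3 protein-coding genes on each side, a comparison chosen after their values were seen. On the side of Chrna5, Hykk, AY074887 and Psma4, a proteasome subunit, were called in no comparison, with differences between -0.78 and 0.22. On the side of Chrnb4, Ube2q2, a ubiquitin-conjugating enzyme, was called lower in carotid body than in ganglion (-1.35), and it stood at -0.997 in adrenal medulla minus ganglion, just under the 2-fold limit. Fbxo22 and Nrg4, farther out, were called in no comparison. The differences of Chrna5, Chrna3 and Chrnb4 against ganglion (-2.09 to -4.59) were larger in size than those of all 6 neighbours.

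**Figure D3:**
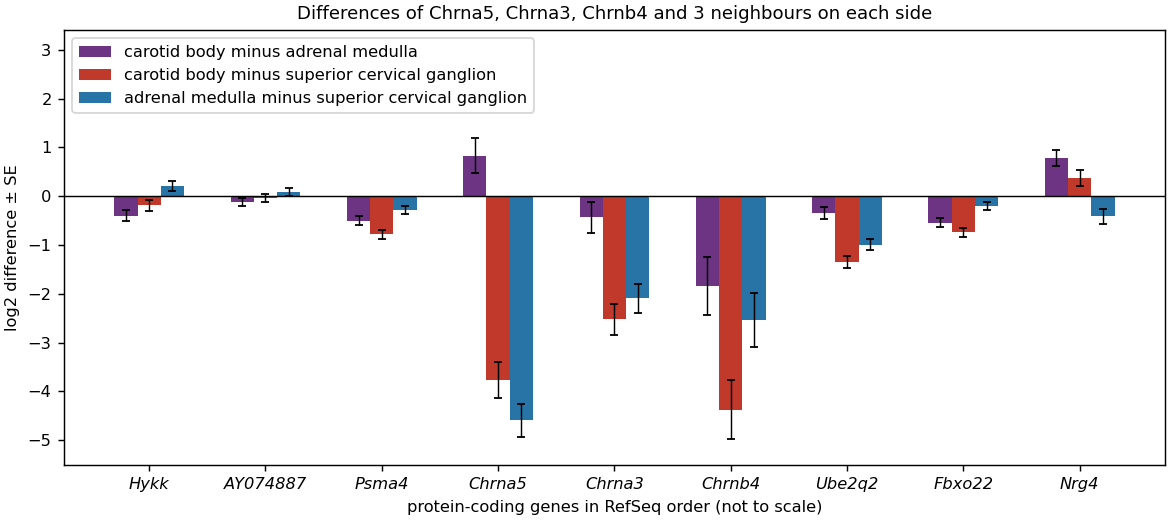
Log2 difference with its standard error in the 3 tissue comparisons for Chrna5, Chrna3, Chrnb4 and 3 protein-coding neighbours on each side in gene order, which is not to scale. Bars of the clustered genes against ganglion reach -4.59, while the neighbours stay between -1.35 and 0.78.

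Among the muscarinic genes Chrm2 (TC0600000350.mm.1), the receptor known from the heart and from presynaptic endings, separated the 3 tissues most widely. It read 8.84, 7.36 and 8.04 in carotid body, 5.53, 5.59, 5.20 and 5.07 in adrenal medulla, and 12.07, 11.45, 11.66 and 12.38 in ganglion. The tissues did not overlap, and 2 of the 4 adrenal medulla arrays were under their background bound. Ganglion was 14.1-fold above carotid body (-3.81, SE 0.32, adjusted p = 6.91e-06) and at least 85.8-fold above adrenal medulla, with those 2 arrays set to their bound (fitted difference -6.54, SE 0.30, adjusted p = 2.8e-08). Carotid body was at least 6.11-fold above adrenal medulla (fitted 2.73, SE 0.32, adjusted p = 8.07e-05). That difference was 2.35 without carotid body replicate 1 and 3.09 without replicate 2, a call that held in both cases.

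Chrm1 (TC1900000150.mm.1), the receptor behind slow excitation of sympathetic neurons, was also called higher in ganglion. It read 7.69, 7.13 and 7.43 in carotid body, 6.98, 6.78, 6.85 and 6.54 in adrenal medulla, and 9.28, 8.90, 9.32 and 9.87 in ganglion. Ganglion was 3.81-fold above carotid body (-1.93, SE 0.21, adjusted p = 3.74e-05) and 5.87-fold above adrenal medulla (-2.55, SE 0.20, adjusted p = 1.67e-06). No tissues overlapped, and carotid body was 0.62 above adrenal medulla (SE 0.21, adjusted p = 0.0466), under the 2-fold limit.

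Chrm3 (TC1300001430.mm.1), a receptor of glands and smooth muscle, and Chrm4 (TC0200001392.mm.1) were dim in all 3 tissues and were called in none of the comparisons. Chrm3 read 5.70 to 5.98 in ganglion, 6.08 to 6.19 in carotid body and 6.26 to 7.05 in adrenal medulla, without overlap. Its order was adrenal medulla, carotid body, ganglion, with differences of -0.46 (carotid body minus adrenal medulla, SE 0.15, adjusted p = 0.0444) and 0.79 (adrenal medulla minus ganglion, SE 0.14, adjusted p = 0.00115), both under the 2-fold limit. Carotid body minus ganglion was 0.33 (SE 0.15, adjusted p = 0.131). Chrm4 read 5.92 on each carotid body array, 5.27 to 5.65 in adrenal medulla, where 1 array was under its bound, and 6.001 to 6.60 in ganglion. Adrenal medulla minus ganglion was -0.72 (SE 0.13, adjusted p = 0.0014), again under the limit. Chrm4 had the identical value on 2 of the 3 carotid body arrays, as 13.1% of all genes had on at least 2 of them. Why these values agree was not tested, and no SD is given.

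Ache is represented by 2 transcript clusters that did not give the same size of difference. The brightest, used for the counts above, is TSUnmapped00000036.mm.1, whose identifier marks it as not placed on the genome. It read 14.73, 12.27 and 13.38 in carotid body, 12.62, 12.15, 12.61 and 11.64 in adrenal medulla, and 16.64, 16.05, 16.31 and 16.62 in ganglion. All ganglion arrays lay above the rest, while carotid body replicate 2 fell inside the adrenal medulla range. Ganglion was 17.8-fold above adrenal medulla (-4.15, SE 0.43, adjusted p = 2.06e-05) and 7.71-fold above carotid body (-2.95, SE 0.47, adjusted p = 0.000521). The latter difference was -3.58 without carotid body replicate 1 and -2.35 without replicate 2. Carotid body was 1.20 above adrenal medulla (SE 0.47, adjusted p = 0.081), not called, but called without carotid body replicate 2 (1.80, adjusted p = 0.00715) and with array weights (1.10, adjusted p = 0.0416).

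The other cluster, TC0500001620.mm.1, carries the number of chromosome 5, where RefSeq places Ache. It read 7.68, 7.56 and 7.56 in carotid body, 7.27, 6.93, 7.29 and 6.98 in adrenal medulla, and 8.27, 7.999, 8.22 and 8.15 in ganglion. The order of the tissue means was the same as for the first cluster, and here the tissues did not overlap. The differences were smaller: -1.04 for adrenal medulla minus ganglion (adjusted p = 1.04e-05), -0.56 for carotid body minus ganglion (adjusted p = 0.0019), under the 2-fold limit, and 0.48 for carotid body minus adrenal medulla (adjusted p = 0.00596), also under it. The spread over the carotid body arrays was 0.06 (SD) here and 1.23 for the first cluster. Replicates 2 and 3 had the identical value here, for a reason that was not tested, so 0.06 may understate the spread. Which cluster follows the transcript more closely was not tested.

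**Figure D4:**
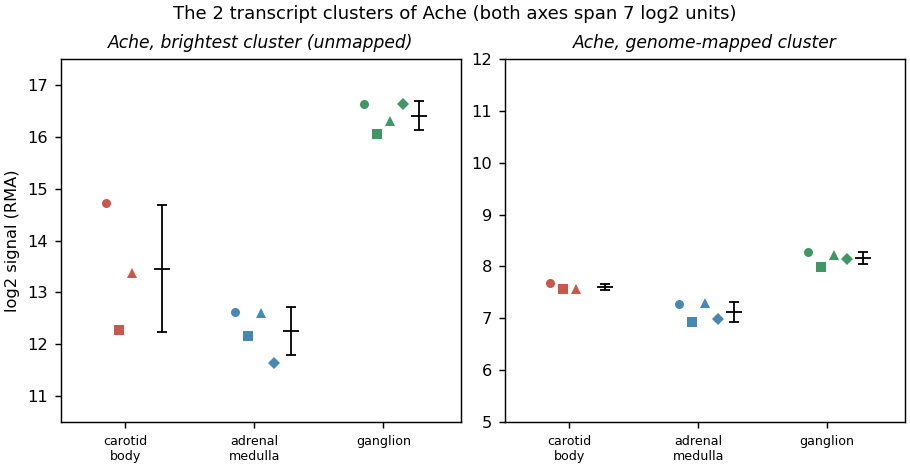
Log2 signal of both transcript clusters of Ache on every array, with axes of equal span; marker shapes stand for replicates, black bars for mean and SD. Both are highest in ganglion, but the unplaced cluster spans 12.27 to 14.73 over the carotid body arrays. The genome-mapped one spans 7.56 to 7.68 there, with the identical value on replicates 2 and 3.

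The spread among the carotid body arrays was shared by most of the genes. Replicate 2 gave the lowest value of the 3 arrays for 9 of the 10 genes, all but Chrm4, as it did for 25.7% of all genes and for 34.4% of those whose mean lay above the mean bound. In 7 of the 10, replicate 1 was highest and replicate 3 between, an order found in 14.4% of all genes and in 21.8% of those above the bound. Ache stands here by its unplaced cluster. On its genome-mapped cluster replicates 2 and 3 had the identical value (7.56), so neither count would include it. The median SD of the 10 genes was 0.62 in carotid body, 0.22 in adrenal medulla and 0.40 in ganglion, beside 0.15, 0.11 and 0.18 over all genes. For Chrnb4 the carotid body SD of 1.72 was exceeded by 0.0398% of all genes, and for Ache 1.23 by 0.295%. Chrm3 (0.05), dim in all 3 tissues, varied little, with 84.0% of all genes more variable. Chrm4 had the identical value on 2 of the 3 arrays, so its spread is not ranked, though it enters the median SD above.

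Marker lists differed over the same 3 arrays. The neuron list, whose mean cannot be read as neuron content alone, averaged 12.56, 10.83 and 11.76 on replicates 1 to 3. From replicate 1 to replicate 2 this was a fall of 1.73. Between these arrays Chrnb4 differed by 3.44, Ache (unplaced cluster) by 2.46, Chrna5 by 1.79 and Chrna3 by 1.63. Chrm2 differed by 1.49, Chrna7 by 0.86, Chrnb2 by 0.81 and Chrm1 by 0.56. The neurofilament gene Nefl read 12.68, 9.12 and 10.99 and the neuronal tubulin gene Tubb3 14.36, 11.65 and 13.18. All 12 neuron markers were highest on replicate 1 and lowest on replicate 2. The chromaffin or glomus list, whose mean does not separate glomus cells from sympathetic neurons, averaged 15.06, 14.07 and 14.58. In it, 7 of the 8 genes had that order of highest and lowest array. The widest gap in the list was that of Dbh, the enzyme that makes noradrenaline (19.11, 16.17 and 17.77). Of the granule protein genes, Chga fell from replicate 1 to replicate 2 (15.41, 14.45 and 14.67). Scg2 (14.30, 14.06 and 14.25) was nearly level, and Chgb (15.92, 16.25 and 16.36) was lowest on replicate 1. Replicate 1 was the highest array for both lists and for each of the receptor genes and Ache except Chrnb2 and Chrm3, which were highest on replicate 3. For Chrm4 replicate 1 was highest by only 0.0007. Skeletal muscle markers averaged 6.66 on replicate 2 against 5.19 and 5.28, and 9 of the 10 were highest there, such as the myosin gene Myh4 at 7.89 against 4.81 and 4.91. Adipocyte markers averaged 9.62 there against 8.97 and 9.08, but their genes did not move together. Of 7, 4 were highest on replicate 2, Adipoq was highest on replicate 1 (9.82, 9.46 and 8.75), and Lep and Ucp1 (5.73, 7.99 and 8.56) on replicate 3. Fibroblast (14.09 to 14.25) and endothelial (11.005 to 11.09) lists were nearly level. Smooth muscle and pericyte markers averaged 11.62, 11.57 and 11.15, lowest on replicate 3, and glial markers 10.55, 10.26 and 10.27, highest on replicate 1. Whether the makeup of the pools set the spread of the receptor genes was not tested.

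**Figure D5:**
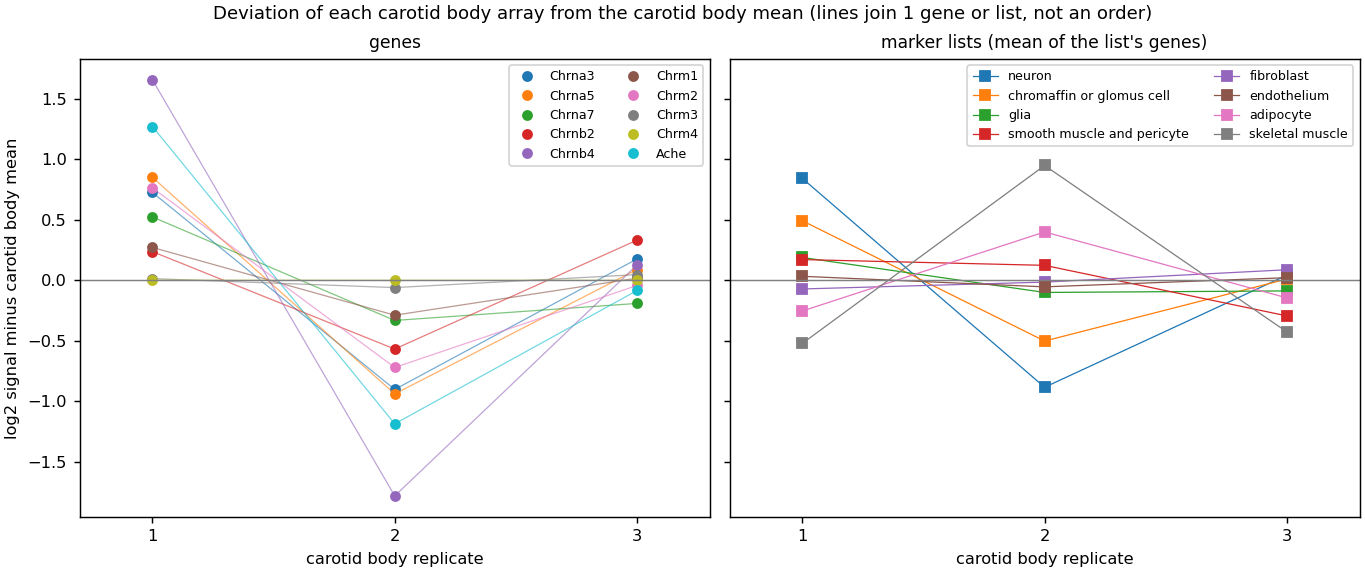
Deviation of each carotid body array from the carotid body mean (log2) for the 10 genes (left) and for 8 marker lists averaged over their genes (right); lines join the values of 1 gene or list and imply no order of replicates. Replicate 2 is low for most of the genes and for the neuron list (10.83 against 12.56 and 11.76), and high for the means of the skeletal muscle and adipocyte lists, though 3 of 7 adipocyte genes were highest on another array.

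Without carotid body replicate 2, the calls against adrenal medulla were Chrm2, Chrna5 and Ache, 3 genes that were all higher in carotid body. With all arrays 3 were called as well, Chrm2 higher and Chrnb2 and Chrnb4 lower. Leaving out replicate 1 kept those calls, and leaving out replicate 3 lost only that of Chrnb4. Array weights were 0.46, 0.63 and 1.64 on carotid body replicates 1 to 3, so replicate 2 was not the array with the lowest weight. Against ganglion, 8 of the 10 were called with and without carotid body replicate 2, at differences between -3.48 and 2.66 without it.

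Other genes of the receptor families gave no calls. Of 12 further genes (Chrna1, Chrna2, Chrna4, Chrna6, Chrna9, Chrna10, Chrnb1, Chrnb3, Chrnd, Chrne, Chrng and Chrm5), 0 of 12 were called in any comparison, and 2 of 12 were above the bound on all arrays of a tissue. These were Chrnb1, a muscle receptor subunit, at 5.79 ± 0.07 in carotid body and 5.43 ± 0.03 in adrenal medulla, and Chrna4, a subunit of the main brain receptor, at 5.60 ± 0.16 in adrenal medulla. The remaining genes were under their bound on all 11 arrays, Chrna1 among them (4.73 ± 0.05 in carotid body). Their lack of calls therefore says little about them.

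Genes that make and load acetylcholine were at background. Chat, the enzyme that synthesises it, averaged 4.29 ± 0.11 in carotid body, 4.21 ± 0.01 in adrenal medulla and 4.21 in ganglion, under the bound on all 11 arrays. Slc18a3, its vesicular transporter, was under the bound on all arrays too (4.32 ± 0.28, 3.86 ± 0.12 and 4.13 ± 0.16). Slc5a7, the choline transporter of cholinergic endings, was above the bound only on 3 of the 4 ganglion arrays (5.88 ± 0.47) and was not called. These values bound the signal of each probe set and do not show that a transcript is absent.

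Of 11 genes for acetylcholine synthesis, transport and breakdown, carotid body was lower than ganglion in 3 and lower than adrenal medulla in 1, adrenal medulla was lower than ganglion in 3, and 0 of 11 were called higher in these comparisons. Over all genes, the shares called lower were 8.28%, 4.95% and 7.50% in that order. Colq, the collagen tail that anchors acetylcholinesterase at muscle synapses, was 3.87-fold lower in carotid body than in ganglion (5.98 ± 0.14 against 7.93 ± 0.27) and at least 5.83-fold lower in adrenal medulla. Prima1, the membrane anchor of the same enzyme in neurons, was at least 1.46-fold lower in adrenal medulla than in ganglion, all 4 adrenal medulla arrays being under the bound (fitted -1.01), and averaged 5.84 ± 0.13 in carotid body and 5.93 ± 0.25 in ganglion. Chka, a choline kinase, was lower in carotid body, 2.82-fold against adrenal medulla and 2.39-fold against ganglion. Slc44a2, a choline transporter-like protein, was 2.19-fold lower in carotid body than in ganglion and 2.80-fold lower in adrenal medulla. Bche, the second cholinesterase, averaged 6.62 ± 0.15 in carotid body, 5.93 ± 0.17 in adrenal medulla and 6.84 ± 0.26 in ganglion and was not called. The median difference of the list was -0.22 for carotid body minus ganglion (all genes -0.02) and 0.36 for carotid body minus adrenal medulla (all genes 0.05).

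Of 14 assembly factors and Ly6-type modulators of nicotinic receptors, carotid body was below ganglion in 3 and above it in 2, and below adrenal medulla in 2. Adrenal medulla was above ganglion in 1 and below it in 2. The shares of all genes called in these directions were 8.28%, 5.61%, 4.95%, 5.72% and 7.50%. Ric3 and Tmem35a, chaperones that help nicotinic receptors reach the cell surface, were both called lower in carotid body than in each other tissue. Ric3 averaged 6.61 ± 0.33 in carotid body, 8.69 ± 0.17 in adrenal medulla and 8.18 ± 0.29 in ganglion (4.22-fold and 2.97-fold lower). Tmem35a averaged 7.36 ± 0.54, 9.52 ± 0.53 and 9.54 ± 0.19 in the same order (4.48-fold and 4.54-fold lower). Lynx1, a membrane protein that dampens nicotinic receptors, was 8.66-fold lower in carotid body and 13.6-fold lower in adrenal medulla than in ganglion (11.12 ± 0.31). Ly6e was 3.01-fold higher in adrenal medulla and 2.18-fold higher in carotid body than in ganglion. Agrn, the organiser of the neuromuscular junction, was also 2.18-fold higher in carotid body than in ganglion. Musk, the receptor kinase of that junction, was called lower in adrenal medulla than in ganglion, at least 1.48-fold, with all 4 adrenal medulla arrays under the bound. The list's median difference was 0.02 for carotid body minus adrenal medulla, beside 0.05 over all genes, and -0.08 for carotid body minus ganglion, beside -0.02.

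Of 15 measured genes through which muscarinic receptors signal, carotid body was above adrenal medulla in 5 and below it in 2, and above ganglion in 1 and below it in 4. Adrenal medulla was above ganglion in 2 and below it in 9. The shares of all genes called in these directions were 6.06%, 4.95%, 5.61%, 8.28%, 5.72% and 7.50%. Kcnq3 and Kcnq5 encode subunits of the M-current, the potassium current that muscarinic receptors shut. Kcnq3 was 20.3-fold lower in carotid body (9.44 ± 1.17) and 16.1-fold lower in adrenal medulla (9.77 ± 0.51) than in ganglion (13.78 ± 0.25), with its carotid body arrays at 10.59, 8.24 and 9.49. Kcnq5 was 4.69-fold lower in carotid body (8.77 ± 0.50) and 20.6-fold lower in adrenal medulla (6.63 ± 0.22) than in ganglion. Kcnj3, a subunit of the potassium channel opened by Chrm2-type receptors, had the tissue order of Chrm2, at 8.78 ± 0.37, 5.98 ± 0.30 and 11.80 ± 0.36 (carotid body 6.94-fold above adrenal medulla and 8.11-fold below ganglion). That order of means was not particular to Kcnj3, being shared in this list by Gnaq, Gnai1, Gnao1, Plcb3, Plcb4, Kcnq5 and Rgs4. Kcnj5 and Kcnj9 of the list were under the bound on all 11 arrays.

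Phospholipase genes of this list divided. Plcb1 was highest in adrenal medulla (10.94 ± 0.30), 7.39-fold above carotid body and 16.8-fold above ganglion, while Plcb3 was highest in ganglion (12.06 ± 0.30), 3.64-fold above carotid body. Rgs4, which shortens G-protein signals, averaged 14.20 ± 0.21 in carotid body and 14.66 ± 0.38 in ganglion, 7.45-fold and 10.2-fold above adrenal medulla, and was not called between the former pair. The list's median difference was 0.38 for carotid body minus adrenal medulla, -0.49 for carotid body minus ganglion and -1.32 for adrenal medulla minus ganglion, beside 0.05, -0.02 and -0.08 over all genes. Kcnj6, another subunit of that channel, was called higher in adrenal medulla than in both other tissues while under the bound on all 11 arrays, so no fold is given.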

How the data were processed

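Total RNA of each pool was measured on 1 mouse transcriptome array. The authors deposited log2 values from RMA, run in Expression Console according to the submitters' processing notes. Base 2 is assumed because RMA uses it, and versions and genome build are not given in the sources used here. Deposited values reached 19.93, which is high for log2 scanner signals and was not explained. Every fold here rests on base 2. The number of arrays limits the precision. Of 65956 transcript clusters, 30604 pair with 1 gene symbol in the array annotation. Symbols were updated through Entrez identifiers in RefSeq's GRCm38.p6 table (819 genes), and the brightest cluster per gene by its mean over 11 arrays was used, leaving 30142 genes. One limma fit (version 3.58.1, R 4.3.3; lmFit, eBayes) over 11 arrays with tissue as the only factor gave 3 contrasts, adjusted over all genes, and was tested on simulated data. Labels call the replicates biological.

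Members, lists and tests were chosen with earlier results of these data known. Named genes are all 10 members, up to 4 called genes with the largest difference per list and contrast, and the 2 protein-coding genes most like each member. Other list, marker and neighbouring genes were named after their values were seen, for their role, position or tissue pattern. Levels of different genes are not compared, since each probe set has its own scale. Folds marked "at least" set arrays under the background bound to the bound. Alternatives tried were other scalings, array weights, another prior, filters, a control-feature covariate, a replicate block, another bound and each array left out.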

Additional observations from a re-analysis of the deposited data

Results flagged for a closer look

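Chrnb2 on adrenal medulla replicate 4 read 8.28, apart from the other 3 adrenal medulla arrays at 8.49 to 8.51. The gap was 0.901 of the group's whole range, above Dixon's critical value for 4 samples. In all 20 groups of 4 arrays were checked (10 genes in adrenal medulla and in ganglion) and 1 stood out; chance marks about 1 in 20 such groups. Without that array Chrnb2 was still called between carotid body and adrenal medulla.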

How the results depend on the processing

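Against ganglion, the calls of all 10 genes, or their lack, were the same under each alternative run, except that with the genome-mapped cluster of Ache carotid body minus ganglion was -0.56, and that without a fold limit Chrnb2, Chrm3 and Chrm4 were also called between adrenal medulla and ganglion. With the replicate block, calls among the 10 genes numbered 3 for carotid body minus adrenal medulla, 8 for carotid body against ganglion and 7 for adrenal medulla against ganglion, the same numbers as without it, and no call of these genes changed. Deviations of same-numbered arrays correlated at -0.17 to 0.25, over 0.1 in 1 of 10 pairs, so the numbers were not taken as pairs. Leaving out each array in turn gave 2 to 3, 8 and 7 in the same order. Carotid body minus adrenal medulla was the unsteady comparison. Chrna7 there, 0.01, turned to -0.14 with median centring, -0.077 with quantile normalization repeated and -0.0903 with array weights, and ranged from -0.25 to 0.17 with 1 array left out. Chrna3 there ranged from -0.79 to 0.021, the latter without carotid body replicate 2. Chrnb4 was also no longer called with quantile normalization repeated (adjusted p = 0.054) or all transcript clusters tested (adjusted p = 0.0596). With all transcript clusters 5157 features were called in this comparison instead of 3320. With no limit on the difference, 8833 genes and 5 of the 10 members were called there, 10271 genes in carotid body minus ganglion and 10363 in adrenal medulla minus ganglion. The causes were not tested beyond what each setting itself changes. Median centring moved the median of all genes between carotid body and adrenal medulla from 0.05 to -0.10. Signal over background limits Chrm2 and Chrm4 in adrenal medulla; with a bound at the 90th percentile no Chrm2 array lay under it, and the folds were 6.63 and 93.2.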

Other observations

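For each of the 10 genes, the 2 protein-coding genes with the highest Pearson r over the 11 arrays were listed. The arrays fall into 3 tissues, so r mostly measures the tissue pattern, and it is given as a description. Chrna3 was most like Susd2 (0.995), a membrane protein gene that averaged 15.60 ± 0.50 in ganglion, 11.93 ± 0.34 in adrenal medulla and 11.27 ± 1.44 in carotid body, and Hcn2 (0.991), a pacemaker channel. Chrnb4 was most like Cyfip2 (0.994) and Atp5b (0.992), and Chrna5 most like the hexokinase gene Hk1 (0.997) and the kinase gene Gsk3b (0.996). Chrnb2 was followed by Klhdc3 (0.991) and Aldh5a1 (0.990). Chrna7 was most like Inpp5a (0.987), an inositol phosphatase gene, and Pcx (0.987), pyruvate carboxylase, which averaged 10.61 ± 0.59 in carotid body, 10.64 ± 0.29 in adrenal medulla and 7.96 ± 0.34 in ganglion.

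Chrm1 was most like Camk2a (0.996), a calcium-dependent kinase, and Tyro3 (0.994), and Chrm2 most like Pitpnc1 (0.997) and Ttl (0.997), a tubulin ligase. Ache was most like Ndrg4 (0.994) and Syn2 (0.992), a synaptic vesicle protein that averaged 11.41 ± 0.87 in carotid body, 10.73 ± 0.22 in adrenal medulla and 13.74 ± 0.19 in ganglion. The dim genes had less close matches, Chrm3 with Tnfaip2 (0.943) and Nucks1 (0.939), and Chrm4 with Impdh1 (0.964) and Habp2 (0.963), whose tissue means of 4.39 to 4.56 lay under the background bound.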
